A study of Mus musculus with 4 samples.

Results

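Innate lymphoid and T-like cells were picked out of 4 single-cell libraries of mouse bone marrow progenitors by their transcripts. A cell was taken when it had at least 2 unique molecular identifiers (UMIs, one per captured transcript molecule) of Il7r, at least 3 UMIs summed over Gata3, Zbtb16, Cxcr6, Il2rb and Il1rl1, and at most 2 UMIs of Cd79a plus Vpreb1. Of 22916 kept cells, 516 met this rule. They were very unevenly spread over the libraries: the control had 42, the Mll3-labelled library 29, the Mll4-labelled library 444 and the Mll3/4-labelled library 1.

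Innate lymphoid cells are lymphocytes without rearranged antigen receptors. Group 1 cells and natural killer cells carry cytotoxic and interferon programmes, group 2 cells (ILC2) respond to IL-33 and IL-25 and use Gata3 and Rora, and group 3 cells and lymphoid tissue inducer cells make IL-22, IL-17 and lymphotoxin. Many of these cells, though not all kinds, arise in the marrow from Il7r-bearing lymphoid progenitors through a stage marked by Zbtb16, Tcf7 and Id2. ILC2 precursors in the marrow are lineage negative and carry Sca1.

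The libraries held donor cells (CD45.2+) sorted as lineage negative, Sca1+ and Kit+, the LSK gate of blood stem cells and multipotent progenitors, 10 weeks after transplantation. The genotypes were control, Mll3 deleted, Mll4 deleted and Mll3/4 deleted, with 1 library each. Mll3 and Mll4 are the histone H3 lysine 4 methyltransferases of the genes Kmt2c and Kmt2d. The labels name no strain, allele, Cre driver or number of mice, so no difference below has a replicate check. Every interval is a 95% interval that covers counting error only, and no test was made. Libraries are called by their labels because Kmt2d was at 24.6 CPM (UMIs summed over cells and scaled to the same total) in the other cells of the control and at 21.8 CPM in those of the Mll4-labelled library. Kmt2c was at 68.9 CPM in the other cells of the control and at 35.3 CPM in those of the Mll3-labelled library. In the innate lymphoid and T-like cells of the control Kmt2d was at 21.2 CPM (9.14 to 41.7), on 8 UMIs. In those of the Mll4-labelled library it was at 38.3 CPM (33.3 to 43.9), and these intervals overlap. Kmt2c was at 68.8 CPM (45.0 to 101) and 95.9 CPM (87.9 to 105) in the same cells.

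These cells made up 9.26% (8.46 to 10.1, exact binomial) of the kept cells of the Mll4-labelled library. In the control they made up 0.577% (0.416 to 0.780), so the share was 16.0 times the control's (11.7 to 22.6). The Mll3-labelled library had 0.475% (0.319 to 0.682), a ratio of 0.823 (0.495 to 1.35), whose interval includes no difference. The Mll3/4-labelled library had 0.0211% (0.000533 to 0.117). Depth moved with these shares: median UMIs per kept cell were 14454, 15381, 21400 and 8920 in the order control, Mll3-, Mll4- and Mll3/4-labelled. With every cell thinned to 3000 UMIs the shares were 0.207%, 0.148%, 5.47% and 0.0212% in that order, so the Mll4-labelled library kept the highest share at equal depth. The filter of at least 1000 genes took 2634 of 7702 deposited barcodes of the Mll4-labelled library and 224 to 280 in each of the others. Outside the filter, 66 of 2909 removed barcodes (2.27%) of the Mll4-labelled library met the rule.

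**Figure D1:**
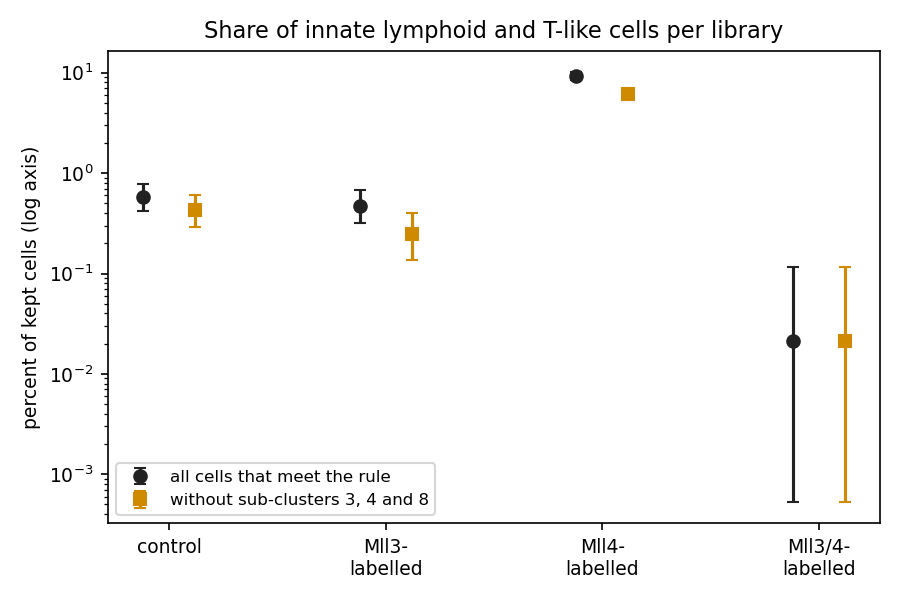
Percent of kept cells (log axis) that met the rule in each library, with exact 95% binomial intervals for counting error. Circles are all cells that met the rule and squares leave out sub-clusters 3, 4 and 8; the Mll4-labelled library is highest both ways, at 9.26% and 6.20%.

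The low number in the Mll3/4-labelled library came after a limit that bears on almost all of its cells. There, Il7r reached 2 UMIs in 4401 of 4748 cells and the sum of the other 5 genes reached 3 UMIs in 96. Both held in 92 cells, and the limit on Cd79a and Vpreb1, genes of the B-cell receptor and the pre-B receptor, removed 91 of them. Cd79a had a UMI in 4729 of that library's 4747 other cells. The same limit removed 0, 1 and 3 cells in the control, Mll3- and Mll4-labelled libraries. The share in the Mll3/4-labelled library was 1.94% without the limit, so it was set by the limit and is not comparable with the others. Its 1 remaining cell had 4229 UMIs, with 7 of Il7r, 2 of Gata3 and 3 of Il1rl1.

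The genes of the rule chose the cells, so their levels are description only. Il7r (chromosome 15, 9505788 to 9530176, GRCm38), the receptor for IL-7, was at 736 CPM in these cells against 2.84 in the other kept cells of the control, 399 against 13.0 in the Mll3-labelled and 982 against 8.87 in the Mll4-labelled library. Gata3 (chromosome 2, 9857078 to 9890034), the transcription factor of ILC2 and T cells, was at 262, 189 and 259 CPM in the same order. Il1rl1 (chromosome 1, 40429570 to 40465415), the IL-33 receptor, which mast cells also carry, was at 119, 102 and 686 CPM. Cxcr6 (chromosome 9, 123806475 to 123811760), a homing receptor, was at 222, 123 and 176 CPM. Il2rb (chromosome 15, 78479256 to 78495271), the shared IL-2 and IL-15 receptor chain, was at 37.1, 63.0 and 13.2 CPM. Zbtb16 (chromosome 9, 48654297 to 48836222), the factor of the common innate lymphoid precursor, had a UMI in 2 of 42, 2 of 29 and 129 of 444 cells. Of the 5 summed genes Il1rl1 thus had the highest total in the Mll4-labelled library, where 129 of the 444 cells passed the sum of 5 genes only because of it, against 5 in each of the control and Mll3-labelled libraries.

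Just outside the Il7r threshold, at 1 UMI, were 4, 1 and 87 cells of the control, Mll3- and Mll4-labelled libraries, and just inside it, at 2 UMIs, were 4, 7 and 45. For the sum of 5 genes, 8, 7 and 23 cells stood at 2 UMIs and 9, 7 and 20 at 3. No cell of these libraries stood at 2 or 3 UMIs of Cd79a plus Vpreb1 with the other conditions met. No barcode of these cells was shared between the sets of 2 libraries. Of all kept cells, 7 to 14 barcodes were shared by each pair of libraries, and 3 of the barcodes in question were among the kept cells of another library.

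The cells were of several kinds. Clustered on their own, they formed 8 sub-clusters, numbered by size. Markers were called raised when at least 2-fold above the other cells that met the rule. Clusters were built from the same transcripts, so the genes below describe them. Sub-clusters 1 (102 cells), 3 (81), 6 (52) and 8 (28) held only cells of the Mll4-labelled library. A cluster that comes from 1 library may be that library rather than a cell type, and these possibilities cannot be told apart here.

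Sub-clusters 1 and 2 were ILC2-like. Sub-cluster 1 had raised Gata3, Il17rb, Rora, Icos and Il9r. Gata3 was at 627 CPM (576 to 682) with UMIs in 97 of its 102 cells, Il17rb, the IL-25 receptor, was at 408 CPM and Rora was at 623 CPM. Icos, a co-stimulatory receptor, was at 317 CPM and Arg1, the arginase of ILC2, at 250 CPM. Its leading genes by fold were Npnt, Axin2, Plod2 and Serpinb12, and none of its 10 leading genes was a fixed marker. The precursor markers Zbtb16 (70.7 CPM), Tox (343 CPM) and Il18r1 (377 CPM) were raised there too, so the name rests on 5 ILC2 markers beside 3 of precursors. Sub-cluster 2, with 98 cells of the Mll4-labelled library and 1 of the control, had raised Il2ra, Klrg1 and Areg beside Gata3, Il17rb and Il9r. Gata3 was at 560 CPM (505 to 619) there and Il2ra, the high-affinity IL-2 receptor chain, at 222 CPM. Both sub-clusters had no UMI of Cd3g. Both had almost none of the group 1 and group 3 receptors: Ncr1 was at 0 and 1 UMI and Ccr6 at 1 and 0 UMI.

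Sub-cluster 7 held the ILC2 genes of the other libraries. It had 18 cells of the control, 10 of the Mll3-labelled, 2 of the Mll4-labelled and the 1 cell of the Mll3/4-labelled library. It was left unnamed because no ILC2 marker was among its leading genes, while 1 ILC1/NK gene was. Its median depth was also low, at 0.286 of the cells' own library median. Gata3 was at 620 CPM (463 to 813) in its control cells and 998 CPM (709 to 1364) in its Mll3-labelled cells, and Il1rl1 was at 418 and 742 CPM. Ltb, lymphotoxin beta, was at 1694 and 1867 CPM. Ncr1, Ccr6 and Mpo had 0 UMIs in both. Ccl5, a chemokine of memory and killer lymphocytes, was at 346 CPM in 10 of the control's 18 cells and at 0 UMIs in the Mll3-labelled cells. Calca, a neuropeptide gene of activated ILC2, was at 382 and 384 CPM, but all 32 and all 15 of its UMIs lay in 1 cell of each library.

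Sub-cluster 5 carried group 3 and group 1 genes. ILC3 and ILC1/NK markers were both raised. It stayed unnamed because more ILC1/NK markers were raised, while its 10 leading genes held 3 ILC3 genes and 1 ILC1/NK gene. It had 12 cells of the control, 5 of the Mll3-labelled and 43 of the Mll4-labelled library. Ccr6, the chemokine receptor of lymphoid tissue inducer cells, was at 390, 327 and 694 CPM in that order of libraries. Cd74, the invariant chain of MHC class II, was at 4352, 4216 and 4492 CPM, and Ltb at 1891, 2181 and 1218 CPM. Ncr1, which encodes the receptor NKp46, was at 60.0, 836 and 182 CPM, but 17 of the 23 UMIs in the Mll3-labelled library came from 1 cell. Klrd1, a killer-cell lectin receptor, and Eomes, a natural killer cell factor, rested on 1 control cell, which held all 33 and all 9 of their control UMIs. Il1rl1 was at 0 UMIs in the control and at 5.88 CPM in the Mll4-labelled cells of this sub-cluster, so they were chosen mainly by Cxcr6 (540, 618 and 574 CPM), Gata3 and Il2rb. Cells of this sub-cluster with Ccr6 were thus present in 3 libraries, and it made up 0.165% (0.0853 to 0.288) of kept cells in the control and 0.897% in the Mll4-labelled library.

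Sub-cluster 6, of 52 Mll4-labelled cells, had all 7 fixed markers of innate lymphoid precursors raised. Zbtb16 was at 139 CPM (104 to 180) with UMIs in 30 cells, Tox at 514 CPM, Tcf7 at 151 CPM, Pdcd1, the gene of PD-1, at 350 CPM and Il18r1, an IL-18 receptor chain, at 857 CPM. Rora was at 963 CPM and Bcl11b, a factor of T cell and ILC2 commitment, at 471 CPM. It was left unnamed, because no precursor marker stood among its 10 leading genes, while 1 ILC1/NK gene and 1 T cell gene did. Its median depth was also low, at 0.315 of the library median. Of the ILC1/NK markers Nkg7, Ccl5 and Eomes were raised there too, at 199, 95.8 and 20.2 CPM, with 8 UMIs of Eomes in 2 cells. Its 10 leading genes held Cd160, a killer-cell receptor, at 85.7 CPM and Lef1, a T cell factor, at 282 CPM.

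The other 3 sub-clusters held 172 cells. At least 3 mast or granulocyte-monocyte markers were raised in the sum of each sub-cluster, which need not hold for each cell or library in it. Against the label, sub-cluster 3 was mast-like: Cpa3, the mast cell carboxypeptidase, was at 13955 CPM, Cma1, a mast cell chymase, at 7943 CPM and Fcer1a, the IgE receptor alpha chain, at 806 CPM. Gata3 was at 24 CPM there and Il1rl1 at 1938 CPM, so these cells met the rule chiefly through Il1rl1. In the Mll4-labelled library 814 kept cells had at least 50 UMIs of the mast genes, and 101 of them met the rule, 93 only through Il1rl1. In the control 3 cells had as many mast UMIs and none met it. Sub-cluster 8 (28 cells) mixed mast, macrophage and haemoglobin transcripts, and 7 of its cells were among the highest doublet scores. Hba-a1 was at 8392 CPM there, and 3944 of its 5335 UMIs lay in 1 cell.

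Sub-cluster 4 (11, 14 and 38 cells of the control, Mll3- and Mll4-labelled libraries) stood apart by depth, with a median of 27751 UMIs, 1.52 times the library median, and 28 of its 63 cells were among the highest doublet scores. Its 38 Mll4-labelled cells had Mpo, the myeloperoxidase of neutrophil granules, at 4517 CPM and Elane, neutrophil elastase, at 2153 CPM, while Mpo was at 13.6 CPM in its control cells. Results are therefore given both for all cells that met the rule and without sub-clusters 3, 4 and 8, a choice made after the sub-clusters were seen. Without them 31, 15, 297 and 1 cells were left in the order of the libraries. The share in the Mll4-labelled library was then 6.20% (5.53 to 6.92), 14.5 times (10.0 to 21.8) the control's 0.426% (0.290 to 0.604). The Mll3-labelled library was at 0.246% (0.138 to 0.405), 0.577 times the control (0.289 to 1.10).

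**Figure D2:**
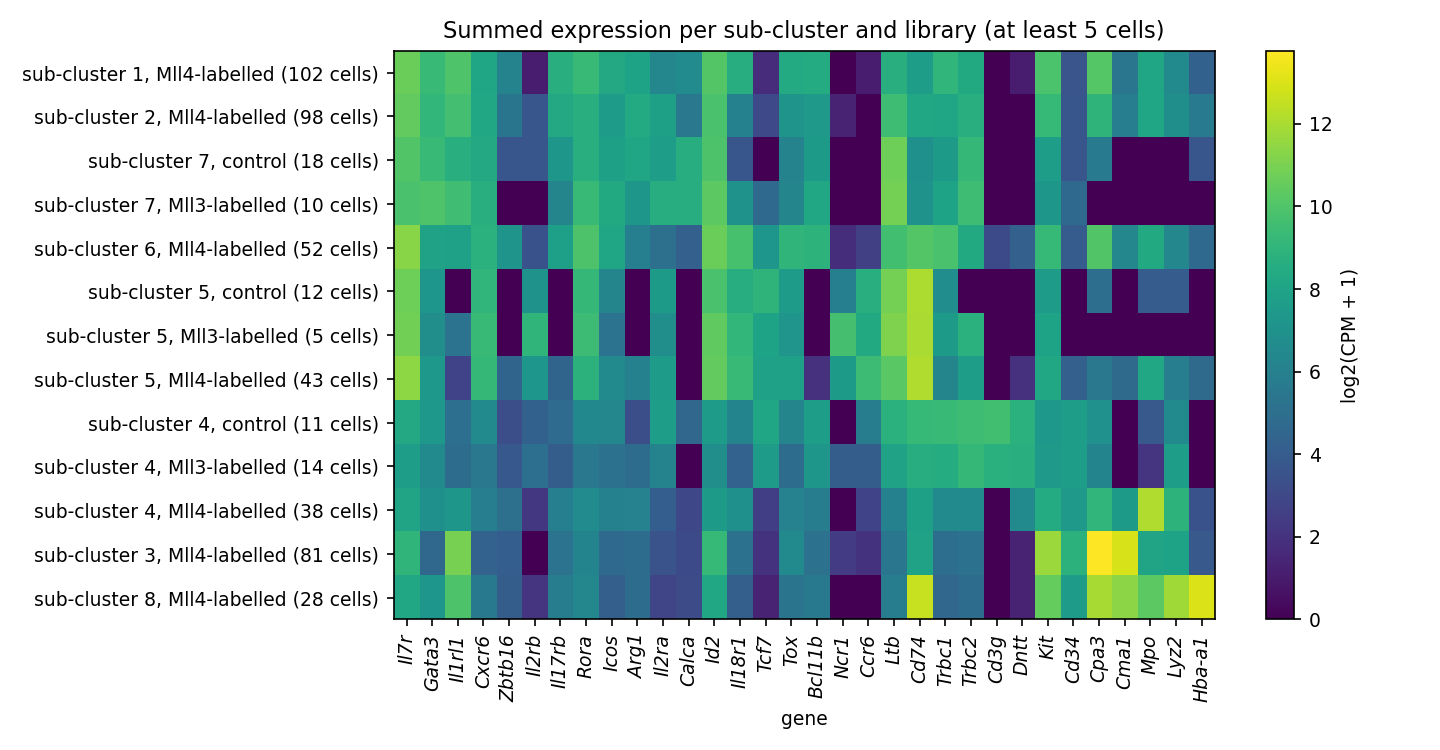
Summed expression, as log2(CPM + 1), of selected genes (columns) in each sub-cluster and library with at least 5 cells (rows). ILC2 genes are high in sub-clusters 1, 2 and 7, Ccr6 in sub-cluster 5, Cd3g in the control and Mll3-labelled cells of sub-cluster 4, and Cpa3 and Cma1 in sub-clusters 3 and 8.

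Cells with T cell receptor signalling chains were few. Those with at least 2 UMIs of Cd3d, Cd3e and Cd3g, the chains that carry the T cell receptor signal, numbered 3 of 42 in the control (7.14%, 1.50 to 19.5), 3 of 29 in the Mll3-labelled library (10.3%, 2.19 to 27.4) and 1 of 444 in the Mll4-labelled library (0.225%, 0.0057 to 1.25). The intervals of the Mll4-labelled library and of the other 2 do not overlap, but these shares depend on how many other cells met the rule. Of all kept cells, those that met the rule with this Cd3 level were 3 of 7274, 3 of 6101 and 1 of 4793. With or without the rule, 10, 55 and 9 kept cells reached this Cd3 level in the same order of libraries. The control's 3 cells had 83, 85 and 79 Cd3 UMIs and the Mll3-labelled library's had 61, 79 and 5, whereas the cell of the Mll4-labelled library had just 2. In 5 of the 7 Cd3-high cells the sum was thus far above the threshold.

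The 6 Cd3-high cells of the control and the Mll3-labelled library all lay in sub-cluster 4 and shared further transcripts. Results without sub-clusters 3, 4 and 8 thus leave out every Cd3-high cell of these 2 libraries. Each had Dntt, the terminal transferase of receptor rearrangement (7 to 42 UMIs), Trdc, the delta chain constant gene (2 to 13 UMIs), Tcrg-C1, a gamma chain constant gene (5 to 25 UMIs), and Trbc2, a beta chain constant gene (22 to 79 UMIs). None had a UMI of Trac, Cd4, Cd8a, Cxcr6, Il2rb, Zbtb16 or Il1rl1, so each met the rule through 3 to 7 UMIs of Gata3. They held 11933 to 29341 UMIs per cell. Trac, the alpha chain constant gene that marks mature alpha-beta T cells, had 0 UMIs in every sub-cluster.

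Most Cd3-high cells did not meet the rule. The control had 7 of them, the Mll3-labelled library 52, the Mll4-labelled library 8 and the Mll3/4-labelled library 0. Of the 52, 38 had under 2 UMIs of Il7r and 46 under 3 UMIs of the 5 genes. Their median Cd3 sum was 34 UMIs, against 30 in the control and 2 in the Mll4-labelled library, and together they held 1945 UMIs of Trbc2, 1257 of Trbc1 and 1165 of Dntt. The 5-gene sum thus left out most Cd3-high cells of the Mll3-labelled library.

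T cell receptor constant genes were counted far more widely than Cd3. Of the 444 Mll4-labelled cells, 4 had any Cd3 UMI. In the 297 Mll4-labelled cells left after setting sub-clusters 3, 4 and 8 aside, Trbc1 (chromosome 6, 41538218 to 41539881, GRCm38) was at 451 CPM against 2.39 in the other cells, and Trbc2 at 330 against 1.37 CPM. After thinning to 3000 UMIs, Trbc1 had a UMI in 60.2% of these cells, in 0.852% of the other cells and in 0.143% of granule-gene cells, which should lack it. Granule-gene cells are other cells with at least 10 UMIs of Elane, Prtn3 and Ctsg, and had a median of 35161 UMIs in this library. In the 31 control cells Trbc1 was at 140 CPM and Trbc2 at 317 CPM. Tcrg-C4, a gamma chain constant gene, was at 204 CPM in the Mll4-labelled and 260 CPM in the control cells. Trbc1 and Trbc2 are near-identical copies, and some Tcrg constant genes are alike too, so how reads were split between such copies is uncertain.

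Gene lists were then read as the ratio of summed CPM in these cells to that in the other kept cells of the same library. A list's median covers its genes whose mean level reached 20 CPM, and a gene counts as higher or lower from 2-fold. The rule's own genes are left out of the lists. The cells were chosen on related transcripts, so the counts describe the cells and support nothing else. Of all genes tested, 8.16% were higher and 5.0% lower in the control, 4.0% higher and 1.63% lower in the Mll3-labelled and 6.79% higher and 2.53% lower in the Mll4-labelled library.

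The ILC2 list was high in all 3 libraries: 9 of 10 tested genes were higher in the control, 6 of 7 in the Mll3-labelled and 9 of 10 in the Mll4-labelled library, and none was lower. The list medians were 7.07, 4.97 and 4.89 on the log2 scale, beside 0.04, 0.06 and 0.01 over all genes tested. In the Mll4-labelled library Arg1 was at 120.5 CPM against 0.47 (log2 ratio 7.99, 7.61 to 8.43), Icos at 127 against 0.82 CPM (7.26), Il2ra at 63.8 against 0.42 CPM (7.25) and Rora at 300 against 7.66 CPM (5.29). The same 4 genes were at 82.1, 111, 204 and 259 CPM in the control's cells and at 39.3, 65.6, 105 and 150 CPM in the Mll3-labelled library's. Crlf2, a receptor chain for the cytokine TSLP, was the tested gene of this list that was not raised in the Mll3-labelled library, at 134 CPM against 154. The effector cytokines of ILC2 were close to absent: the 297 Mll4-labelled cells outside sub-clusters 3, 4 and 8 held 4 UMIs of Il5, 3 of Il13 and 32 of Il4, and the control's 31 held 0, 0 and 2.

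The innate lymphoid precursor list had 11 of 12 tested genes higher in the control, 9 of 11 in the Mll3-labelled and 9 of 11 in the Mll4-labelled library. Its medians were 4.28, 3.19 and 3.50. Id2, an inhibitor of E proteins that all innate lymphoid cells need, was at 498 CPM in the control's cells and at 323 CPM in the Mll3-labelled library's. In the 297 Mll4-labelled cells it was at 1174 CPM against 39.0 in the other cells (log2 ratio 4.91), and after thinning 91.3% of them had a UMI, against 12.8% of the other cells and 9.04% of granule-gene cells. Without thinning these shares were 97.0%, 29.8% and 24.7%. Bcl11b was at 140 CPM in the Mll4-labelled cells and 1.01 in the others (7.11), and Il18r1 at 216 against 4.35 CPM (5.64). Tcf7, the gene of TCF1, was at 251, 184 and 29.3 CPM in the cells of the control, Mll3- and Mll4-labelled libraries.

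The group 1 and group 3 lists were thinner. For ILC3 and lymphoid tissue inducer genes 6 of 6 tested genes were higher in the control, 1 of 1 in the Mll3-labelled and 4 of 5 in the Mll4-labelled library, and the medians were 6.65, 3.18 and 3.63. For ILC1 and natural killer genes these counts were 5 of 7, 3 of 5 and 2 of 5, with medians of 4.77, 2.25 and 0.31. In the Mll4-labelled library this last list did not stand out from all genes, and its sign turned with the expression minimum and the weighting of cells (-0.092 from 100 CPM, -0.22 with cells weighted equally). Tyrobp and Fcer1g, adaptor genes of killer cells that myeloid cells also use, were at 37 and 123 CPM in the 297 Mll4-labelled cells against 424 and 345 CPM in the other cells. The T cell list had 10 of 11, 8 of 9 and 5 of 6 tested genes higher, with medians of 6.65, 4.23 and 6.80. Its raised members in the Mll4-labelled library were mostly receptor constant genes, given above.

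Without sub-clusters 3, 4 and 8 more genes lay past 2-fold from the other cells, in sums of fewer UMIs. Of all genes tested 17.3% were then higher and 14.6% lower in the control, 25.5% and 14.9% in the Mll3-labelled and 11.3% and 12.9% in the Mll4-labelled library. The ILC2 list had 10 of 11 genes higher in each of these libraries, with medians of 7.64, 7.13 and 6.26. The precursor list had 11 of 12, 12 of 13 and 11 of 13 higher, with medians of 4.83, 5.03 and 4.91. The smallest set, 15 cells of the Mll3-labelled library, had the highest share of all genes past 2-fold. In the order of the libraries the sums held 157482, 66605 and 2296895 UMIs, against 377818, 381259 and 5452272 with these sub-clusters. Counting error alone puts more genes past 2-fold in smaller sums, so the rise in these percentages does not measure a contrast.

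**Figure D3:**
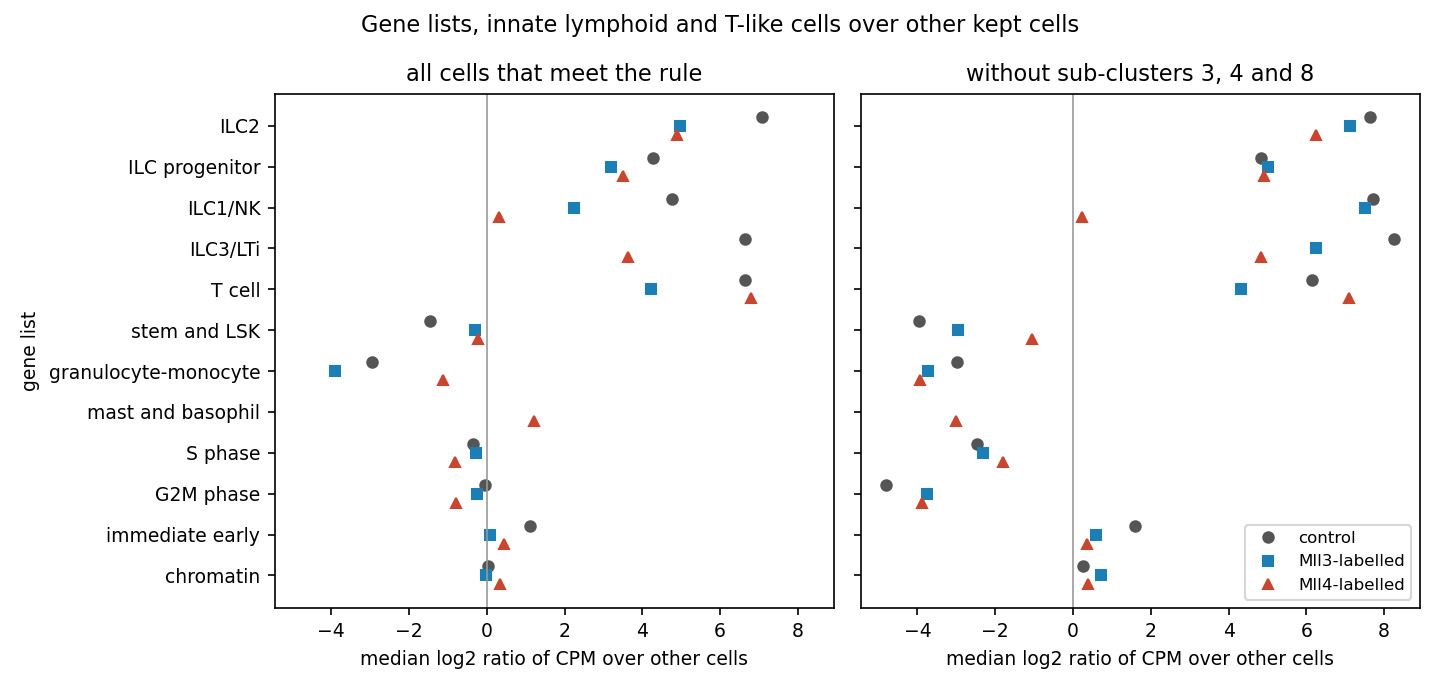
Median log2 ratio of CPM in the cells that met the rule over the other kept cells of the same library, for 12 gene lists, drawn where at least 3 genes were tested. The left panel has all cells and the right leaves out sub-clusters 3, 4 and 8; the ILC2 medians are 7.07, 4.97 and 4.89 on the left and 7.64, 7.13 and 6.26 on the right.

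By the rule for named genes, the 25 highest ratios of the Mll4-labelled library included further lymphoid genes. Skap1, a T cell adaptor, was at 172 against 1.50 CPM and Gimap3, a lymphocyte GTPase, at 152 against 1.61 CPM. Socs1, an inhibitor of cytokine signalling, was at 74.3 against 3.66 CPM, and Ikzf3, the lymphoid factor Aiolos, at 76.9 against 1.45 CPM. Stab2, a scavenger receptor gene best known from sinusoidal endothelium, was at 257 against 2.98 CPM (log2 ratio 6.43, 6.26 to 6.60), with a UMI in 274 of 444 cells, and at 92.6 CPM in the control's cells. Serpinb12, a serine protease inhibitor, was at 60.5 against 0.49 CPM (6.95), with a UMI in 115 cells, and had 0 UMIs in the cells of the control and of the Mll3-labelled library. The others described here were Pxdc1, Pdcd1, B3galt2, Epas1, Klrb1b, Cysltr1, Ccr9, Asb2, Tcrg-C4, Trbc1 and Trbc2, at 54.7 to 228 CPM. The 10 lowest were led by Chil3, a neutrophil and macrophage lectin, at 5.87 against 161 CPM (-4.76, -5.33 to -4.28). Ngp, Ltf, Lcn2, Hp, Wfdc21, S100a8, S100a9, Fkbp11 and Alas1, mostly neutrophil granule genes, were at ratios of -2.19 to -1.50.

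Granule and mast genes were also read as a background. In the Mll4-labelled library the 15 granulocyte-monocyte genes summed to 6990 CPM in the cells that met the rule, to 1222 CPM without sub-clusters 3, 4 and 8 and to 17542 CPM in the other cells. In the control they summed to 347, 171 and 1818 CPM. Mpo had a UMI in 56.1% (50.1 to 61.9) of the 289 thinned Mll4-labelled cells without those sub-clusters, in 55.8% of the other cells and in 0% of the 31 control cells (11.9% of the other control cells). Without thinning the Mll4-labelled shares were 85.5% and 90.9%. Cma1 had a UMI in 13.8% of the same Mll4-labelled cells and in 18.4% of the other cells after thinning. Mpo and Cma1 in the Mll4-labelled cells were thus about as frequent as in the other cells, or less. Cpa3 had a UMI in 64.4% of them and in 30.5% of the other cells, at 759 and 666 CPM. The part of free RNA in these values was not tested.

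The surface proteins set these cells apart from the rest of the LSK gate in a direction that the rule did not use. The antibody counts of CD117, the Kit protein on which the cells had been sorted, had a median of 60.5 in the control's cells against 218 in the other cells, 113 against 409 in the Mll3-labelled and 122 against 176 in the Mll4-labelled library. CD34, a progenitor marker, was at 29 against 171, 39 against 273 and 31.5 against 106 counts. CD48, a lymphoid and committed-progenitor marker, was higher: 1657 against 689.5, 1674 against 266.5 and 2331.5 against 1791 counts. Without sub-clusters 3, 4 and 8 every control and Mll3-labelled cell lay below the median CD117 and the median CD34 of the other cells, as did 84.2% (CD117) and 99.7% (CD34) of the Mll4-labelled cells. The mast-like sub-cluster 3 had a median of 636 CD117 counts and sub-cluster 8 one of 704.5, whereas sub-clusters 1, 2, 5, 6 and 7 lay between 62 and 122.5. CD150, CD201 and CD135, markers of stem cells and of multipotent progenitors, had medians of 9 to 29 counts in the cells without sub-clusters 3, 4 and 8. The direction of all 3 in the control and the Mll4-labelled library, and of CD201 and CD135 in the Mll3-labelled library, turned with the scale used: they were lower as counts and slightly higher as centred log ratios.

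**Figure D4:**
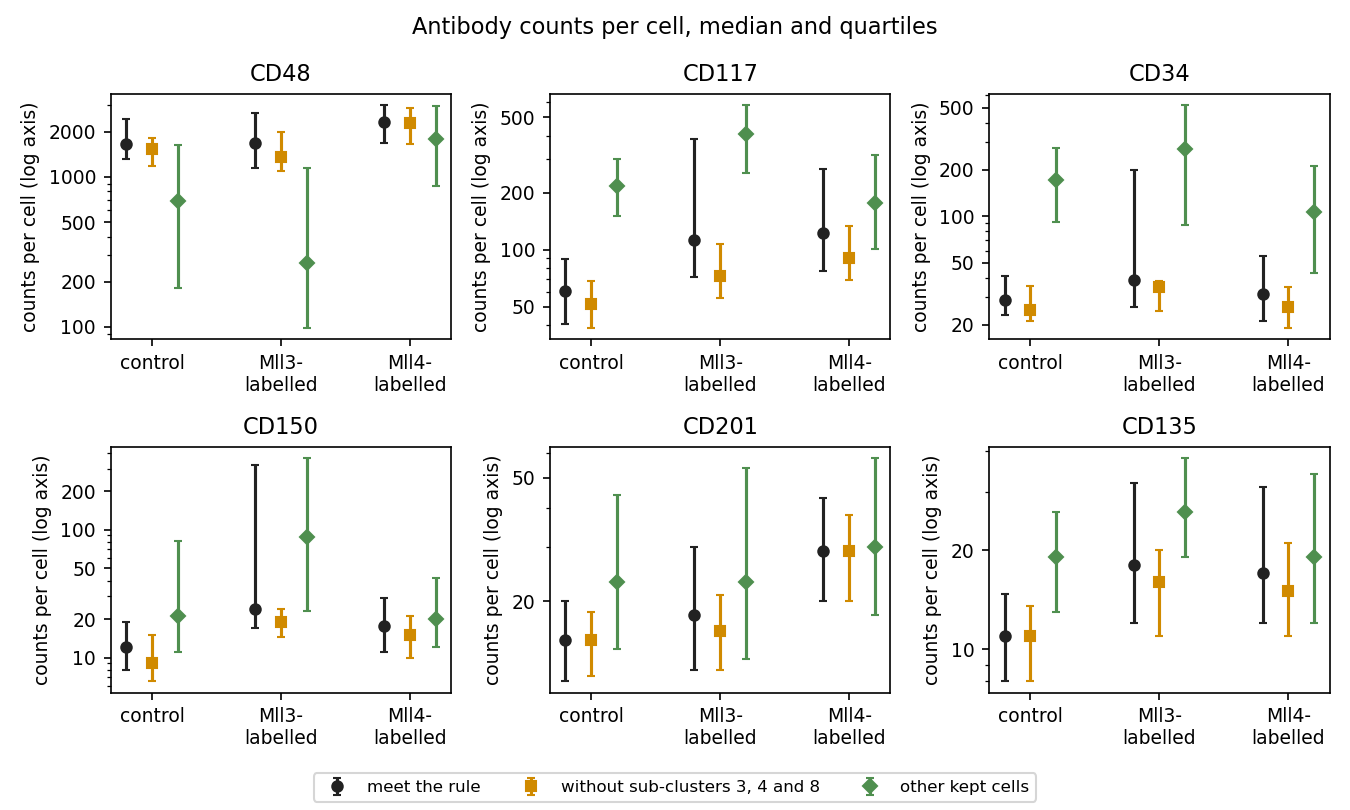
Antibody counts per cell (log axis) of the 6 surface proteins in 3 libraries. Points are medians and bars the lower and upper quartiles; CD117 and CD34 are lower and CD48 higher in the cells that met the rule than in other kept cells of the same library.

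The Kit transcript did not follow the CD117 protein in the Mll4-labelled library. Kit was at 683 CPM in its cells without sub-clusters 3, 4 and 8 against 332 in the other cells (log2 ratio 1.04), while the control's were at 190 CPM. Ly6a, the gene of Sca1, a protein that was not among the antibodies, was at 711 against 102 CPM (2.80), and at 660 CPM in the control's cells. Cd34 was low in transcript as in protein, at 13 against 201 CPM (-3.95). Hlf, a stem cell factor, was at 326 CPM in the Mll4-labelled cells and at 572 CPM in sub-cluster 1, against 152 CPM in the control's cells. The stem and LSK list as a whole had 3 of 11 tested genes higher and 6 lower in the Mll4-labelled library (median -1.06), and 1 of 14 higher and 10 lower in the control (median -3.96, or -2.07 with sums of 0 set to 3 UMIs).

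Cell cycle genes of the G2M list, summed, were far below the other cells in all 3 libraries only once sub-clusters 3, 4 and 8 were set aside. Over all cells that met the rule, G2M genes summed to 3539, 3386 and 2253 CPM in the control, Mll3- and Mll4-labelled libraries. In sub-cluster 4 they summed to 5846, 4017 and 5293 CPM, so setting it aside lowers these sums by itself. The values below describe the cells that were left. The G2M list had 14 of 14 tested genes lower in the control (median -4.80, or -2.75 with sums of 0 set to 3 UMIs) and 14 of 14 lower in the Mll4-labelled library (-3.87). Summed over the list, G2M genes were at 311, 405 and 591 CPM in these cells of the control, Mll3- and Mll4-labelled libraries, against 3569, 3911 and 3835 CPM in the other cells. At least 2 G2M UMIs after thinning were found in 25.8% (11.9 to 44.6), 28.6% and 48.8% (42.9 to 54.7) of them, against 63.1%, 62.0% and 65.5% of the other cells. The Mll4-labelled cells thus had the highest share of the 3, with an interval that overlaps the control's. Among all cells that met the rule the shares were 35.7%, 46.4% and 52.2%, so they too were below those of the other cells. The Mll3-labelled interval (27.5 to 66.1) includes the value of its other cells. Of the Mll4-labelled cells of sub-cluster 4, 92.1% passed this level.

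The cells of the Mll4-labelled library were next set against those of the control, at 444 and 42 cells. Of all genes tested, 7.71% were at least 2-fold higher and 7.03% lower (5.78% and 3.14% in the other cells), and the median of all genes was -0.12. The control's 42 cells held 377818 UMIs, against 119328763 in all its kept cells. Counting error puts more genes past 2-fold in smaller sums, so these percentages are not comparable with those of the other cells. All 13 tested granulocyte-monocyte genes were higher (median 4.82, or 3.52 with sums of 0 set to 3 UMIs) and so were all 8 mast and basophil genes (6.24, or 4.06). The other cells of the 2 libraries differed likewise, with 14 of 14 granulocyte-monocyte and 7 of 7 mast genes higher (medians 3.93 and 5.48), so this difference was not particular to the innate lymphoid and T-like cells. The T cell list had 10 of 14 genes lower (-1.79). Cd3g fell from 453 to 0.55 CPM and Lck, the T cell kinase, from 111 to 2.75 CPM. The 171 control UMIs of Cd3g lay in the 3 Cd3-high cells. The ILC2 list differed little, with 3 of 11 genes higher and 2 lower (0.18), and the precursor list had 3 of 14 higher and 3 lower (0.56).

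Among the single genes of this comparison, Mpo was at 1831 against 10.6 CPM (log2 ratio 7.26, 6.08 to 9.31) and Elane at 816 against 7.94 CPM. Cma1 was at 1368 CPM with 0 control UMIs, at least 172-fold higher against 3 UMIs. Slpi, Ly6c2, Mcpt4, Fcer1a, Tpsb2, Cx3cr1, F13a1, Mpeg1 and Auts2 also had 0 control UMIs. Gzma, a granzyme, had 0 UMIs in the Mll4-labelled cells and 140 CPM in the control's. Cd3d, Tcrg-C2, Arpp21, Lat, Lgals1, Ccdc184, Myl10, Ly6d and Tcf7 were lower, at ratios of -8.37 to -3.10. Many control UMIs of these genes lay in its 3 Cd3-high cells. Those cells held 1, 10 and 18 UMIs of Gzma, 21, 13 and 13 of Tcrg-C2, 53, 28 and 6 of Ly6d and 12, 15 and 12 of Tcf7. Without sub-clusters 3, 4 and 8 Ly6d had 0 control UMIs and 120 UMIs in the Mll4-labelled cells, of which 60 lay in 1 cell of sub-cluster 1 and 58 in 1 cell of sub-cluster 6.

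Without those sub-clusters (297 and 31 cells) the lymphoid lists came closer to each other and the killer-cell list drew apart. The control's Cd3-high cells, all in sub-cluster 4, were left out with them, and none of its 31 cells had a Cd3d, Cd3e or Cd3g UMI. The nearer T cell list thus describes that choice of cells. Of all genes tested 7.22% were higher and 12.4% lower, with a median of -0.19. The ILC2 list had 2 of 12 genes higher and 1 lower (0.09), the precursor list 6 of 16 higher and 4 lower (0.49), the ILC3 list 2 of 11 higher and 4 lower (-0.69) and the T cell list 2 of 11 higher and 4 lower (-0.53). The ILC1 and natural killer list had 1 of 11 higher and 8 lower (-2.08). Klrd1 led the lowest ratios, at 8.71 against 210 CPM (-4.57, -5.47 to -3.74), but its 33 control UMIs all came from 1 cell. Ccl5 was at 31.8 against 210 CPM (-2.73), and 29 of its 33 control UMIs lay in 10 cells of sub-cluster 7. Tnfrsf18, the co-stimulatory receptor GITR, was at 37.9 against 241 CPM (-2.68), and Ckb, brain-type creatine kinase, at 54.9 against 425 CPM (-2.96). Fam184b, Ccdc184, Rasl11a, Prr29, Cd9, Prss2, Tspan32 and Apoe were lower too, at -3.36 to -2.68.

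On the other side, Pdcd1 was at 135 against 13 CPM, Ahr, the aryl hydrocarbon receptor gene, at 167 against 19 CPM, Lmo4 at 1487 against 425 CPM and Ccr2, a monocyte and lymphocyte chemokine receptor, at 870 against 267 CPM. Il17rb was at 287 against 83 CPM. Serpinb12, Auts2, Prtn3, Ctsg and Ly6c2 had 0 control UMIs and 104 to 137 CPM. Mpo was at 284 against 6.35 CPM (4.90) and Cpa3 at 759 against 38.1 CPM (4.20). Chdh, Nmt1, Zeb2, Slc18a2 and Ctsc, each with 1 control UMI, were at 108 to 197 CPM. The immediate early list had 6 of 8 tested genes lower and none higher (-1.62): Jun was at 157 against 483 CPM, Junb at 167 against 457 CPM and Fos at 22 against 63 CPM. In all cells that met the rule it had 2 of 9 lower (-0.31), and in the other cells 2 of 9 (-0.03). The share of sub-cluster types differed between the libraries, so differences between their sums and differences within a cell type cannot be told apart.

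The cells of the Mll3-labelled library, 29 against 42 of the control, had 7.56% of all genes higher and 4.42% lower (median of all genes 0.11). In the other cells 0.575% were higher and 0.345% lower. The summed cells held 381259 and 377818 UMIs, against 105907176 and 119328763 in all kept cells of these libraries. Counting error puts more genes past 2-fold in smaller sums, so these percentages are not comparable. The stem and LSK list had 9 of 16 genes higher and none lower (1.09), among them Mecom, a stem cell transcription factor, at 76 against 29 CPM. The ILC2 list had 1 of 11 higher and 4 lower (-0.79), the precursor list 1 of 13 higher and 4 lower (-0.62), the ILC1 and natural killer list 1 of 8 higher and 6 lower (-1.69) and the ILC3 list 5 of 7 lower (-1.42). S100a4 was at 131 against 979 CPM (-2.89, -3.36 to -2.47) and Thy1 at 31.5 against 196 CPM. Without sub-clusters 3, 4 and 8, at 15 against 31 cells, 20.2% of all genes were higher and 8.61% lower. These sums were smaller still, at 66605 and 157482 UMIs. The ILC2 and precursor medians were then 0.18 and 0.14, with 1 of 12 and 1 of 13 genes higher and none lower. The shortfall of these lists thus went with sub-cluster 4, which held 14 of the 29 Mll3-labelled cells and 11 of the 42 control cells. Rora was at 646 and 502 CPM, Id2 at 1321 and 927 CPM and Arg1 at 90 and 184 CPM (6 and 29 UMIs) in the cells that were left.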

How the data were processed

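4 libraries (1 per genotype) were read. The deposited values are UMI counts and antibody counts per barcode, written by Cell Ranger 6.1.1 for build mm10, per the submitters' processing notes, from 10x 3' v3.1 libraries, per the labels' protocols. Each held 32285 genes and 6 antibodies. Gene positions are from GENCODE M21 (GRCm38), which held 32158 (99.6%) of the gene identifiers. Kept were barcodes that reached 1000 genes and had no more than 10% of UMIs from mitochondria: 7274, 6101, 4793 and 4748 in the order control, Mll3-, Mll4- and Mll3/4-labelled.

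UMIs were summed over cells, scaled to CPM and compared as log2 ratios with 0.5 UMIs added. Ratio intervals are exact conditional binomial, CPM intervals exact Poisson and share intervals Clopper-Pearson, all at 95%. PCR duplicates are removed by UMIs, but intervals cover counting error only. Sub-clusters used 1000 variable genes, 15 components, 15 neighbours and Leiden resolution 0.5 (scanpy 1.11.5, numpy 2.4.6, scipy 1.17.1). A cluster kept no name if another type had at least as many genes among its 10 leading ones, unless no type had any. Sub-cluster 1 was named under this exception. A cluster also kept none if its median depth was low against its library's and no marker led it. Scrublet's own threshold called 3, 3, 171 and 1 doublets, too few to have worked in 3 libraries, so the highest scores (0.8% per 1000 cells) were removed as an alternative. These were 423, 298, 184 and 180 cells, with 2, 5, 33 and 0 of the cells described.

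Named genes were those of the rule, those of 18 gene lists and those with the highest or lowest ratios. The last were the 25 highest and 10 lowest in the Mll4-labelled library (from 50 CPM). They also included the 12 highest and lowest against the control (from 100 CPM and 20 UMIs). This choice by ratio left out mitochondrial, ribosomal, haemoglobin, receptor-segment, Y-linked and unnamed genes, Xist and Tsix. Hba-a1, Calca and Stab2's cell numbers, and the genes held by 1 cell, were singled out after their values were seen. The cells, the lists and these rules were chosen with earlier results of these data known. The scripts were tested on simulated counts. A few genes that these rules name are not reported here.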

Additional observations from a re-analysis of the deposited data

Results flagged for a closer look

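Against the other kept cells of its library, the B cell list had a median log2 ratio of 1.16 in the control, but -1.003 in the Mll3-labelled and -0.21 in the Mll4-labelled library. It stands out because the signs differ between libraries. The median rests on only 2, 3 and 2 tested genes, in that order. The dendritic list was at 1.82 in the control and -0.15 in the Mll4-labelled library, over 7 and 8 tested genes. Neither difference was tested.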

How the results depend on the processing

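No paired analysis was possible because there was 1 library per genotype and the labels give no replicate numbers. Changing 1 choice at a time, 30 of 44 shares of cells stayed within the counting interval. With a 5-gene sum of at least 5 UMIs the shares were 0.330%, 0.279% and 8.39% in the control, Mll3- and Mll4-labelled libraries, and after thinning to 3000 UMIs 0.207%, 0.148% and 5.47%. The stricter cell filter gave 0.196% (Mll3-labelled), 8.20% (Mll4-labelled) and 0% (Mll3/4-labelled). In the Mll4-labelled library an Il7r minimum of 1 gave 11.1% and of 3 gave 8.32%. Without sub-clusters 3, 4 and 8 (chosen after the data were seen) the shares were 0.246% (Mll3-labelled) and 6.20% (Mll4-labelled). No limit on Cd79a and Vpreb1 gave 1.94% in the Mll3/4-labelled library. The Cd3-high share of the Mll3-labelled library was 28.6% (2 of 7 cells) under the stricter filter, and that of the Mll4-labelled library 0% with a Cd3 minimum of 3 or after thinning. Resolution 1.0 set 107 cells aside in place of 172.

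List medians over the other cells of the Mll4-labelled library moved as follows. ILC2 (4.89) was 5.08 from 5 CPM, 3.87 from 100 CPM, 4.68 with equal weight per cell, 5.16 without doublets, 4.40 with the stricter filter and 6.26 without the 3 sub-clusters. The precursor list (3.50) was 2.92 from 100 CPM, 4.05 without mitochondrial and ribosomal genes, 3.70 without doublets and 4.91 without the sub-clusters. ILC3 (3.63) was 3.98, 4.12, 3.84 and 4.12 from 5 CPM, from 100 CPM, without mitochondrial and ribosomal genes and without doublets, and 4.84 without the sub-clusters. The T cell list (6.80) was 5.62, 6.57, 6.14 and 6.46 in the same order, 5.16 with equal weight and 7.09 without the sub-clusters. ILC1/NK (0.31) turned to -0.092 from 100 CPM and -0.22 with equal weight. It was 0.94 from 5 CPM, 0.52 without mitochondrial and ribosomal genes, 0.22 with TMM, median-of-ratios or without the sub-clusters, 0.43 without doublets and 0.38 with the stricter filter. From 100 CPM the B cell list turned to 0.048 and the stem list to 0.28, and the mast list (1.21) to -0.33 with equal weight and -3.01 without the sub-clusters.

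For the Mll4-labelled cells over the control's, the precursor list (0.56) turned to -0.25 from 5 CPM and was 0.052 without mitochondrial and ribosomal genes. ILC1/NK (-1.01) turned to 0.045 from 100 CPM, and was -1.47 from 5 CPM, -1.50 without mitochondrial and ribosomal genes, -0.46 with the stricter filter and -2.08 without the sub-clusters. ILC3 (-1.14) was -0.57 from 5 CPM and -0.55 with the stricter filter, T cell (-1.79) -0.53 and G2M (-0.61) 1.36 without the sub-clusters, and immediate early (-0.31) 0.36 with the stricter filter. For the Mll3-labelled cells, granulocyte-monocyte (1.12) turned to -1.06 from 5 CPM, -1.50 without mitochondrial and ribosomal genes and -1.26 without the sub-clusters. There ILC2 (-0.79) turned to 0.18, precursor (-0.62) to 0.14, ILC1/NK (-1.69) moved to -0.52 and ILC3 (-1.42) to -0.091. The cause was not tested.

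As a centred log ratio, CD201 and CD135 were higher in the control's cells by 0.20 and 0.10, and lower as counts (-0.58 and -0.74 on the log2 scale) or as shares (-1.13 and -1.39). In the Mll4-labelled library CD150, CD201 and CD135 (0.05, 0.17 and 0.06) turned to -0.18, -0.047 and -0.15 as counts and -0.47, -0.33 and -0.46 as shares. CD150 in the control (0.089) was at -0.76 and -1.32 on those scales, and CD201 (0.26) and CD135 (0.043) in the Mll3-labelled library at -0.34 and -0.83 and at -0.51 and -0.81. TMM moved the median of all genes from -0.12 to 0.01 for the Mll4-labelled and from 0.11 to 0.01 for the Mll3-labelled cells over the control's. Gene lists of Cd3-high over Cd3-low cells were not run, since the Mll4-labelled library had 1 Cd3-high cell.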
